A study of Mus musculus with 8 samples.

Results

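The genes described here are 41 genes that drive or check cell division in germ cells: cyclins, cyclin-dependent kinases (CDKs) with their Cks subunits, Cdc25 phosphatases and Wee1-type kinases, Aurora, Polo-like and Nek kinases, the spindle checkpoint, and the regulators of the anaphase-promoting complex (APC/C). They were taken as a list of symbols, by a rule that uses no measured value, though the list was drawn up with earlier results of these data known. A gene was read through the probe sets annotated to its symbol and to no other, and where it had several, through the one that was brightest on average over all arrays. Of the 41 genes, 39 had such a probe set, out of 19938 genes so measured on the array. Ccnb1 and Nek1 had none and were not analysed here.

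Levels were measured in whole testis RNA of mice at 2 to 3 months of age, with 3 Ing2+/+ littermates and 5 Ing2-/- animals, 1 Affymetrix Mouse Gene ST array per mouse. The Ing2-/- mice carry an allele from which exon 2, flanked by loxP sites in embryonic stem cells, was removed by EIIa-Cre, which acts in the early embryo, on a background crossed to C57BL/6J, so that germ cells and somatic cells both lack the intact gene. Ing2 encodes a reader of methylated histone H3 in a histone deacetylase complex, and loss of it was studied for its effect on sperm formation. Values are RMA levels on the log2 scale, where a difference of 1 is a doubling, and a level reads relative to all else that testis expresses, not as an amount per cell. A gene was called changed at an adjusted p under 0.05 in limma, after Benjamini-Hochberg adjustment over the 35557 probe sets.

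Cyclins switch on CDKs, and each cyclin-CDK pair serves a stage of the division cycle: D-type cyclins with Cdk4 or Cdk6 at the entry into the cycle, E- and A-type cyclins with Cdk2 in DNA replication, and A- and B-type cyclins with Cdk1 at the entry into mitosis or meiosis. At metaphase the spindle checkpoint holds back the APC/C until all kinetochores are attached, after which the APC/C marks securin and cyclin B for destruction and separase opens the cohesin rings. Male germ cells run these steps first as mitotic spermatogonia and then as spermatocytes through both meiotic divisions, and for some steps they use a form that somatic cells barely make, such as cyclin A1 beside cyclin A2, or Aurora C beside Aurora B.

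Ing2 itself was at 7.43, 7.60 and 7.34 (log2 level) in the Ing2+/+ testes and at 5.06, 5.64, 5.21, 5.29 and 5.25 in the Ing2-/- testes, replicates 1 to 5 in that order. All 5 Ing2-/- arrays lay below all Ing2+/+ arrays, as their labels say. Array medians ranged from 6.41 to 6.53. Within its genotype, Ing2-/- replicate 3 had a mean Pearson r of 0.983 with the other arrays over probe sets, which are not independent replicates, against 0.990 to 0.992 for the other Ing2-/- arrays and 0.995 for the Ing2+/+ arrays. Markers of testis cell types moved with genotype and most in that array. The mean of 20 Sertoli cell markers, relative to the Ing2+/+ mean, was 0.30 to 0.53 (log2) in the other 4 Ing2-/- arrays and 1.09 in replicate 3, and that of 9 Leydig cell markers was 0.34 to 0.82 and 1.23. The mean of 14 pachytene spermatocyte markers was -0.22 to -0.11 and -0.55, and that of 15 round spermatid markers was -0.32 to -0.14 and -0.85. The 14 spermatogonial markers averaged 0.05 to 0.20 and 0.38. The 14 markers of elongating spermatids and sperm averaged -0.29 to -0.08 and -0.55, 11 macrophage markers 0.11 to 0.38 and 0.64, 7 peritubular myoid markers 0.05 to 0.18 and 0.46, and 7 endothelial markers 0.11 to 0.24 and 0.27. The genotypes did not overlap in 16 of the 20 Sertoli, 7 of the 9 Leydig, 8 of the 14 pachytene and 11 of the 15 round spermatid markers, nor in 7 of the 14 spermatogonial, 7 of the 14 elongating spermatid, 5 of the 11 macrophage, 5 of the 7 myoid and 5 of the 7 endothelial markers, against 31.6% of all genes. Of the spermatogonial ones 6 were higher and 1 lower in Ing2-/- testes, and of the myoid ones 4 were higher and 1 lower. In the other lists they all lay on the side of the list mean. On all arrays, 18 of the 20 Sertoli markers (without Amh and Krt18), 8 of the 9 Leydig markers (without Hao2), 13 of the 14 spermatogonial markers (without Nanos2), 9 of the 11 macrophage markers (without Cd163 and Ptprc), 6 of the 7 endothelial markers (without Emcn), and all pachytene, round and elongating spermatid and myoid markers were above the median of probe sets with no symbol. In whole testis RNA, fewer cells of a type and less RNA per cell cannot be told apart.

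Promoters are shown for 4 of the genes, since some motifs, which the list did not use, stood in a larger share of the members' windows than of all windows. Not every gene shown has each motif. The windows hold 300 bases around the annotated start of transcription, from RefSeq on GRCm38.p6, each 5′ to 3′ on the strand of its gene. Ccna1 (chr3:55055006-55055305, minus strand) and Plk1 (chr7:122159185-122159484, plus strand) are members with lower levels in Ing2-/- testes, Cdk4 (chr10:127063285-127063584, plus strand) is a member with higher ones, and Ccnb2 (chr9:70421505-70421804, minus strand) is one with near equal levels. Capitals mark the CCAAT box (CCAAT, or ATTGG where it lies on the other strand), the cell cycle homology region (TTTGAA) and the E-box (CACGTG, the same on both strands), and no marked motif overlaps another.
Ccna1: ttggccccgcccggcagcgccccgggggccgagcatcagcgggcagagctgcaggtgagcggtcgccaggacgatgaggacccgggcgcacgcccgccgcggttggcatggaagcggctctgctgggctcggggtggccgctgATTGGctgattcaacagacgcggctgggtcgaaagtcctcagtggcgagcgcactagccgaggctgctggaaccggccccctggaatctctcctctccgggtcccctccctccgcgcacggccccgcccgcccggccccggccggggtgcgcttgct
Plk1: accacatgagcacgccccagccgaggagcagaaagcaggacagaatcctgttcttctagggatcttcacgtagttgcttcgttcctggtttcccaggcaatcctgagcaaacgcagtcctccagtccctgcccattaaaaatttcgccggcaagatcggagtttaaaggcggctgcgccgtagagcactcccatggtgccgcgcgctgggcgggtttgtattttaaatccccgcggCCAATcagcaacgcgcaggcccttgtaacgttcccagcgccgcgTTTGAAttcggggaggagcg
Ccnb2: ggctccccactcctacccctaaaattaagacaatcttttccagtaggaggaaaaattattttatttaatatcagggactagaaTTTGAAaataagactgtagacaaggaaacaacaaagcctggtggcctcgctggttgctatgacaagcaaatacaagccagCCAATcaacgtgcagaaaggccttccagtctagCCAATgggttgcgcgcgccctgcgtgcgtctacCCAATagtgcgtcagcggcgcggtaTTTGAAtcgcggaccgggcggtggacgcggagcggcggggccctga
Cdk4: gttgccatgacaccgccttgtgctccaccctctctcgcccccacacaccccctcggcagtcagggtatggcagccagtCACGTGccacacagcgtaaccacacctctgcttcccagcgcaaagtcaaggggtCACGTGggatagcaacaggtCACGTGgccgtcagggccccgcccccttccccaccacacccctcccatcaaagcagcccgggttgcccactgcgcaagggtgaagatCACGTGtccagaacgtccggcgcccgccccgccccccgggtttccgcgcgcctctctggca

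The Ccna1 window holds 1 CCAAT box, on the other strand, and none of the other motifs. Plk1 has 1 CCAAT box, 14 bases before the annotated start, and 1 cell cycle homology region behind it, and Ccnb2 has 3 CCAAT boxes and 2 cell cycle homology regions. Cdk4 has 4 E-boxes, a motif that was added to the search after this window had been read. Of the members, 29 had an entry in the promoter table, with 31 windows. A CCAAT box on either strand stood in 23 of the 31 windows (74.2%), and in 37.4% of all 32851 windows of the table. TTTGAA or its reverse complement TTCAAA stood in 13 of 31 (41.9%), against 17.9% of all, and both motifs together in the same 13, against 6.95% of all. These 13 windows belong to 12 genes: Aurka, Bub1b, Bub3, Ccnb2, Cdc20, Cdca8, Cdk1, Cks1b, Espl1, Fbxo5, Plk1 and Ttk. The E2F site, searched as TTTNNCGC and its reverse complement GCGNNAAA, stood in 7 of 31 (22.6%) against 5.17%, and the E-box in 4 of 31 (12.9%) against 7.15%. A match does not show that a factor binds. The 12 genes with both motifs had differences on either side of 0, from Plk1 and Espl1 (-0.51 and -0.52, log2 difference) to Ttk and Cdk1 (0.19 and 0.18).

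Across the list, 1 of the 39 measured genes was called between the genotypes (2.56%), against 4.98% of all genes. That gene was Ccnd2, which rose. The median difference of the members, Ing2-/- minus Ing2+/+, was -0.13 on the log2 scale, against 0.02 over all genes, with 13 members above and 26 below 0. It was -0.05 without Ing2-/- replicate 3 and turned to 0.12 with the cell mix (Sertoli minus spermatid markers) as a covariate. The cell mix was -0.02 to 0.01 in the Ing2+/+ arrays and 0.50 to 1.79 in the Ing2-/- arrays, highest in replicate 3. Since it does not overlap between the genotypes, its part and that of genotype cannot be told apart in this or any other fit with it. The differences ran from -0.78 in Ccna1 to 0.57 in Cdk4. In 14 members (35.9%) the arrays of the genotypes did not overlap, 5 of them higher and 9 lower in Ing2-/- testes, against 31.6% of all genes, 16.7% higher and 14.9% lower. An unadjusted p under 0.05 was found for 15 members (38.5%), against 30.0% of all genes. The random variance model of the study's methods, at an unadjusted p under 0.001, called Ccnd2 alone, against 2.71% of all genes. These shares lie near those of all genes. The 95% interval of the difference lay within 1.5-fold either way for 30 of the 38 members not called. The 8 others were Ccna1, Cdk4, Aurka, Cdca8, Plk1, Cdc20, Fbxo43 and Espl1, whose intervals reached past that size on 1 side.

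Leaving out Ing2-/- replicate 3 raised the count to 4 of 39 (10.3%), with Ccnd2 and Cdk4 higher and Ccna1 and Plk1 lower, against 16.5% of all genes (8.72% higher and 7.76% lower). Leaving out any 1 of the Ing2+/+ arrays lowered it to 0 in limma, with adjusted p for Ccnd2 between 0.0593 and 0.0960 and 8 to 10 members at an unadjusted p under 0.05. Those fits called 49, 40 and 149 of all 19938 genes, without Ing2+/+ replicates 1, 2 and 3 in turn. All 39 members lay above the median of probe sets with no symbol (5.47 to 5.62) on every array. Fbxo5, at 5.95 to 6.26, was the dimmest and lay below the median of all probe sets on every array.

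**Figure D1:**
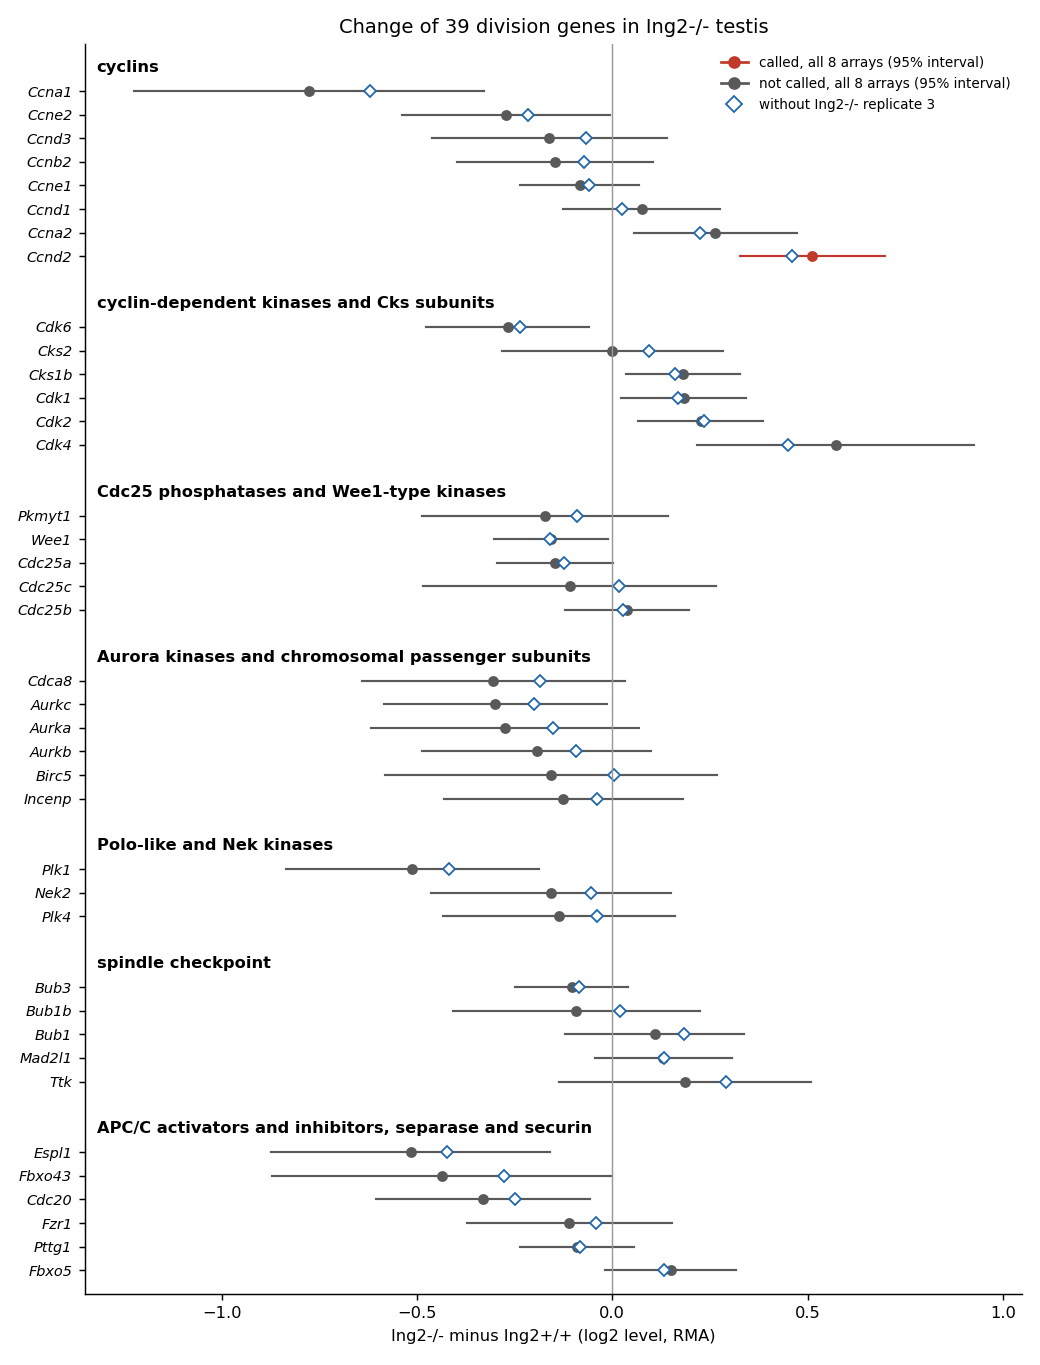
The difference of each of the 39 measured genes between Ing2-/- and Ing2+/+ testes on the log2 scale (x axis), grouped by role. Circles and bars are the limma difference and its 95% interval over all 8 arrays, red for the 1 gene called (Ccnd2), and open diamonds are the difference without Ing2-/- replicate 3, which lies closer to 0 for Ccna1 (-0.62) and Cdk4 (0.45).

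Among the 8 cyclins measured, 1 was called and the rest were not, with 3 differences above and 5 below 0. Ccnd2, the D-type cyclin of proliferating spermatogonia and somatic cells (probe set 10548105), was at 7.92, 7.85 and 7.92 in Ing2+/+ testes and at 8.37, 8.31, 8.62, 8.43 and 8.32 in Ing2-/- testes. Every Ing2-/- testis lay above every Ing2+/+ testis, by more than the spread within either genotype. The mean rose from 7.90 ± 0.04 (SD, n = 3) to 8.41 ± 0.13 (SD, n = 5), a difference of 0.51 (SE 0.08) or 1.43-fold, with an adjusted p of 0.0179 in limma. The rise was 0.46 without replicate 3 (adjusted p = 0.00467) and 0.34 once the cell mix entered as a covariate (adjusted p = 0.143), and it turned to -0.11 when arrays were set to an equal level of Sertoli cell markers, a shift that lowered the median of all genes to -0.60.

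Neither of the other D-type cyclins was called. Ccnd1 was at 6.87, 7.09 and 6.97 in Ing2+/+ and at 6.95, 7.05, 7.26, 6.95 and 7.07 in Ing2-/- testes, and the genotypes overlapped (difference 0.08, interval -0.13 to 0.28, and 0.02 without replicate 3). Ccnd3 was at 8.31, 8.46 and 8.50 and at 8.50, 8.41, 7.89, 8.31 and 8.19. Its difference of -0.16 rested on the low value of replicate 3, and was -0.07 without it.

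Ccna1, the cyclin A of meiosis, without which male mice do not complete the first meiotic division (probe set 10498192), had the most negative difference of all 39 members. It was at 10.32, 10.22 and 10.34 in Ing2+/+ testes and at 9.93, 9.64, 8.90, 9.67 and 9.46 in Ing2-/- testes. No Ing2-/- testis reached the lowest Ing2+/+ one, and replicate 3 was lowest by a wide margin. The difference was -0.78 (SE 0.20, interval -1.22 to -0.33), and 1.71-fold higher in Ing2+/+ than in Ing2-/- by the means, with an adjusted p of 0.0576 in limma that missed the threshold. Without replicate 3 it was smaller, -0.62, but passed (adjusted p = 0.0111). With the cell mix as a covariate it was -0.22 (adjusted p = 0.512).

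Ccna2, the cyclin A of mitotic cells, lay the other way, at 7.01, 7.08 and 7.11 in Ing2+/+ and at 7.48, 7.16, 7.49, 7.21 and 7.31 in Ing2-/- testes. The groups did not overlap, but the gap between them was small and the difference of 0.26 (interval 0.06 to 0.47) was not called (adjusted p = 0.110).

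Ccnb2, a B-type cyclin that works with Cdk1, was at 10.87, 10.93 and 10.88 and at 10.89, 10.81, 10.45, 10.93 and 10.66. Replicates 1 and 4 lay at the Ing2+/+ level, replicate 3 was lowest, and the difference was -0.15, or -0.07 without it. The E-type cyclins, partners of Cdk2, differed by -0.08 (Ccne1) and -0.27 (Ccne2), and in both the genotypes overlapped.

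Of the 6 CDKs and Cks subunits, none was called and 5 had a difference above 0. Cdk4, the kinase of the D-type cyclins (probe set 10366814), was at 8.95, 9.12 and 9.17 in Ing2+/+ testes and at 9.49, 9.50, 10.14, 9.45 and 9.70 in Ing2-/- testes. The genotypes did not overlap, and replicate 3 was highest. The difference was 0.57 (SE 0.16) or 1.49-fold, with an adjusted p of 0.0683. Without replicate 3 it was 0.45 and passed (adjusted p = 0.0147). It was 0.13 with the cell mix as a covariate and -0.05 at equal Sertoli marker levels. Markers of Sertoli and Leydig cells were higher in the same 5 arrays and highest in the same replicate 3.

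Cdk6, the other partner of D-type cyclins, went the other way from Cdk4. It was at 7.76, 7.59 and 7.82 in Ing2+/+ and at 7.58, 7.61, 7.33, 7.42 and 7.34 in Ing2-/- testes, with a difference of -0.27 (interval -0.48 to -0.06; adjusted p = 0.108) and an overlap of 1 Ing2+/+ array with the Ing2-/- range.

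Cdk2, which male meiosis needs at telomeres and crossover sites, was at 9.82, 9.72 and 9.78 and at 10.15, 9.97, 9.97, 9.99 and 9.92. All Ing2-/- arrays were above all Ing2+/+ arrays, replicate 3 was not the extreme, and the difference was 0.23 with and without it (adjusted p = 0.0883 and 0.0646). Cdk1, the kinase of entry into mitosis and meiosis, differed by 0.18 with overlapping groups. The Cks subunits bind CDKs and steer their substrates. Cks1b was at 7.32, 7.30 and 7.25 and at 7.54, 7.44, 7.55, 7.37 and 7.45, higher in every Ing2-/- testis but not called (0.18, adjusted p = 0.116), and Cks2, needed for the first meiotic anaphase, differed by 0.00 (interval -0.28 to 0.28), and by 0.10 without replicate 3. Cks2 was read by 3 probe sets with near parallel levels and differences of -0.10, -0.07 and 0.00. Near copies of the gene may share them.

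**Figure D2:**
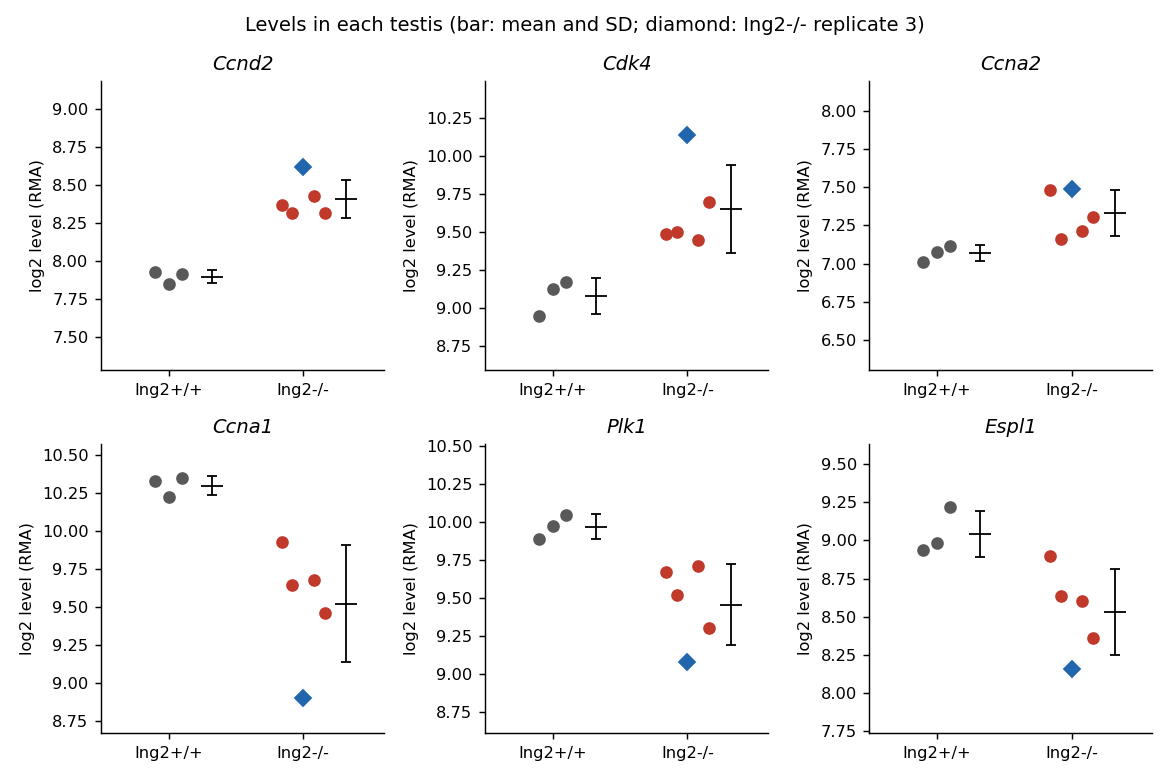
Log2 RMA levels of Ccnd2, Cdk4, Ccna2, Ccna1, Plk1 and Espl1 in each testis (y axes span the same range of log2 units), with means and SD as bars and Ing2-/- replicate 3 as a blue diamond. In the upper row every Ing2-/- testis lies above the Ing2+/+ testes, in the lower row every one lies below them, and replicate 3 is the extreme of its genotype in all 6 genes.

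The balance of Cdc25 phosphatases, which activate Cdk1 and Cdk2, and of Wee1-type kinases, which hold them inactive, showed no call among 5 genes. Cdc25a was at 9.50, 9.55 and 9.50 in Ing2+/+ and at 9.45, 9.30, 9.28, 9.44 and 9.38 in Ing2-/- testes, and Wee1 at 9.96, 9.88 and 9.96 and at 9.74, 9.68, 9.79, 9.85 and 9.82. Both an activator and an inhibitor were thus lower in every Ing2-/- testis, by -0.15 and -0.16 in the mean, with adjusted p of 0.184 and 0.154. Cdc25b, Cdc25c and Pkmyt1 overlapped between genotypes, with differences of 0.04, -0.11 and -0.17. Without replicate 3 the difference was 0.02 for Cdc25c and -0.09 for Pkmyt1.

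The 6 Aurora kinases and subunits of the chromosomal passenger complex, which corrects wrong attachments of chromosomes to the spindle, all had differences below 0, from -0.30 to -0.13, and none was called. Aurkc, the Aurora form made mainly in meiotic cells, was at 8.66, 8.66 and 8.50 in Ing2+/+ and at 8.40, 8.36, 7.91, 8.46 and 8.40 in Ing2-/- testes. The groups did not overlap, though 4 of the 5 Ing2-/- arrays lay close below the lowest Ing2+/+ array. The difference was -0.30 (interval -0.58 to -0.01; adjusted p = 0.163). The other 3 probe sets under this symbol, which were dimmer, differed by -0.39, -0.43 and -0.50, and the first of them passed (adjusted p = 0.047), so the call on Aurkc depends on the probe set read. The loci that these probe sets read were not checked.

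Aurka, the Aurora kinase of spindle poles, was at 10.18, 10.17 and 10.19 and at 10.13, 9.99, 9.42, 10.10 and 9.88. Its Ing2+/+ arrays were nearly equal and its Ing2-/- arrays spread widely, with a difference of -0.27 that was -0.15 without replicate 3. Aurkb, the kinase of the complex in mitosis, differed by -0.19, Cdca8 (borealin) by -0.30 and Incenp, the scaffold, by -0.13, each with overlapping groups. Without replicate 3 these were -0.09, -0.19 and -0.04.

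Birc5 (survivin) was at 8.10, 8.09 and 8.13 in Ing2+/+ and at 8.17, 8.14, 7.30, 8.07 and 8.06 in Ing2-/- testes. Only replicate 3 departed from the others. The difference of -0.16 was 0.00 without it. All 6 genes of this group were lowest of all 8 arrays in replicate 3, by a median of 0.55 log2 units below the mean of the other Ing2-/- arrays (-0.55). Pachytene and round spermatid markers were lowest in the same array, and their part in these values was not tested beyond the fit with the cell mix as a covariate, in which all 6 differences lay above 0, from 0.03 (Aurkc) to 0.39 (Birc5). That covariate did not overlap between the genotypes, so its part and that of genotype cannot be told apart.

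Plk1, the Polo-like kinase that drives entry into division and the assembly of the spindle (probe set 10557156), was at 9.89, 9.97 and 10.05 in Ing2+/+ and at 9.67, 9.52, 9.08, 9.71 and 9.30 in Ing2-/- testes. All Ing2-/- testes were below all Ing2+/+ testes. The difference was -0.51 (SE 0.14; 1.43-fold higher in Ing2+/+), with an adjusted p of 0.0710, and -0.42 without replicate 3, which passed (adjusted p = 0.0335). With the cell mix as a covariate it was -0.14 (adjusted p = 0.672). Plk4, which duplicates centrioles, and Nek2, which splits centrosomes and is abundant in spermatocytes, differed by -0.14 and -0.16 and overlapped between the genotypes. Without replicate 3 these were -0.04 and -0.05.

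Among the 5 genes of the spindle checkpoint none was called, none had an unadjusted p under 0.05, and the genotypes overlapped in all of them. Bub1, a kinase at the kinetochore, was at 10.08, 10.02 and 10.01 in Ing2+/+ and at 10.26, 10.23, 9.84, 10.23 and 10.17 in Ing2-/- testes. The other 4 Ing2-/- arrays lay above the Ing2+/+ arrays and replicate 3 below them. Ttk (Mps1), the kinase that starts checkpoint signalling, had the same layout, at 9.16, 9.05 and 9.01 and at 9.37, 9.26, 8.84, 9.56 and 9.25. Without replicate 3 the differences were 0.18 in Bub1 and 0.29 in Ttk, with adjusted p of 0.0594 and 0.0624, and so still not called.

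Bub1b (BubR1), which binds and inhibits the APC/C activator, was at 9.47, 9.40 and 9.47 and at 9.56, 9.52, 8.90, 9.41 and 9.38, with a difference of -0.09 that was 0.02 without replicate 3. Bub3, its partner, differed by -0.10 and Mad2l1 (Mad2), the protein that captures Cdc20, by 0.13. The intervals of Bub1, Bub1b, Bub3, Mad2l1 and Ttk all stayed within 1.5-fold, with the widest reaching 0.51 in Ttk.

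The activators and inhibitors of the APC/C, with separase and securin, had 5 differences below 0 and 1 above among 6 genes, and none was called. Espl1 (separase), which cuts cohesin at anaphase, was at 8.94, 8.98 and 9.22 in Ing2+/+ and at 8.90, 8.63, 8.15, 8.60 and 8.36 in Ing2-/- testes. The groups did not overlap, but the gap between their nearest arrays was narrow. The difference was -0.52 (SE 0.16), with an adjusted p of 0.0855, and -0.42 without replicate 3 (adjusted p = 0.0617). Pttg1 (securin), which holds separase inactive, was at 9.07, 9.11 and 9.11 and at 9.12, 8.97, 8.98, 9.04 and 8.92. The difference of -0.09 (interval -0.24 to 0.06) lay within the spread of the arrays, and replicate 3 was not an extreme.

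Cdc20, the APC/C activator of anaphase, was at 8.91, 9.10 and 9.15 and at 8.89, 8.89, 8.39, 8.75 and 8.70, lower in every Ing2-/- testis (-0.33, adjusted p = 0.121). Fzr1 (Cdh1), the activator used after anaphase and in G1, differed by -0.11 with overlapping groups, and by -0.04 without replicate 3. Fbxo43 (Emi2), an APC/C inhibitor of meiotic cells, was at 9.17, 9.11 and 9.10 and at 9.02, 8.77, 8.05, 8.90 and 8.72. It was lower in every Ing2-/- testis, with a difference of -0.44 (adjusted p = 0.179), of which replicate 3 carried the most (-1.07 relative to the Ing2+/+ mean, against -0.28 for the mean of the other 4). With the cell mix as a covariate the difference of Fbxo43 was 0.12 (adjusted p = 0.712). Fbxo5 (Emi1), its counterpart in mitotic cells, was at 5.95, 5.99 and 6.21 and at 6.21, 6.16, 6.26, 6.20 and 6.18, and overlapped between genotypes (0.15).

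Whether forms assigned to germ cells moved apart from counterparts assigned to somatic cells was compared in 5 pairs. The assignment was not tested in these data. It does not mean that a form such as Cks2 or Cdc25c is confined to germ cells. For each pair, the log2 level of the counterpart was subtracted from that of the germ-cell form within each testis. The genotypes were compared by the exact two-sided permutation test, with p-values adjusted over the 5 pairs. With 3 arrays against 5 there are 56 splits and the smallest p is 0.0179, so that no pair could pass 0.05 after adjustment unless other pairs had a low p as well. Differences are given relative to the Ing2+/+ mean, since levels of 2 probe sets are not comparable.

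Ccna1 minus Ccna2 was at 0.08, -0.08 and 0.00 in Ing2+/+ and at -0.78, -0.75, -1.82, -0.77 and -1.07 in Ing2-/- testes. Even the Ing2-/- testis nearest to the Ing2+/+ range lay far below it. The mean shift was -1.04 (interval -1.56 to -0.51), with an exact permutation p of 0.0179, the smallest possible (adjusted 0.0893). Limma, with the pair added to the table of all probe sets, gave an adjusted p of 0.0434. The members of the pair lay on opposite sides of 0, with Ccna1 at -0.78 and Ccna2 at 0.26. Without replicate 3 the shift of the pair was -0.84.

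Fbxo43 minus Fbxo5 was at 0.15, 0.04 and -0.19 in Ing2+/+ and at -0.27, -0.46, -1.29, -0.37 and -0.54 in Ing2-/- testes. Again all Ing2-/- testes were lower, though replicate 1 only just. The shift was -0.59 (interval -1.07 to -0.10; exact permutation p = 0.0536, adjusted 0.134). Without replicate 3 it was -0.41. Fbxo5, at 5.95 to 6.26, was the dimmest of the members. The other pairs overlapped between the genotypes. Aurkc minus Aurkb shifted by -0.11 (interval -0.29 to 0.07; exact permutation p = 0.196, adjusted 0.327), Cks2 minus Cks1b by -0.18 (interval -0.51 to 0.14; exact permutation p = 0.429, adjusted 0.536), and Cdc25c minus Cdc25b by -0.15 (interval -0.58 to 0.29; exact permutation p = 0.571). Without replicate 3 the shift of Aurkc minus Aurkb was again -0.11, and those of the others were -0.07 for Cks2 minus Cks1b and -0.01 for Cdc25c minus Cdc25b. In the Aurora pair both forms were lower together, and replicate 3 was at -0.10. That pair was read through the brightest Aurkc probe set, and with the mean of the 4 probe sets its shift was -0.21.

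**Figure D3:**
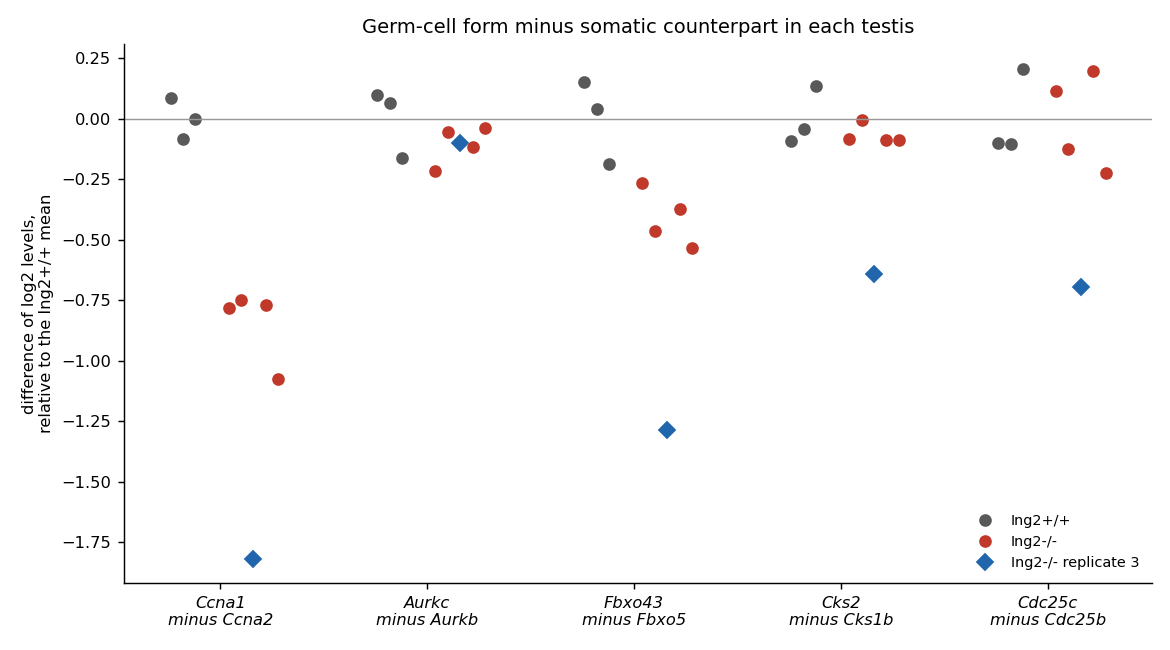
Log2 level of the form assigned to germ cells minus that of the counterpart assigned to somatic cells in each testis, for 5 pairs. The y axis is relative to the Ing2+/+ mean. Grey circles are Ing2+/+, red circles Ing2-/- and the blue diamond is Ing2-/- replicate 3. All Ing2-/- testes lie below the Ing2+/+ testes for the cyclin A pair (shift -1.04) and the Emi pair (shift -0.59), and the genotypes overlap in the other 3.

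Ing2-/- replicate 3 set much of the spread. It was the lowest of all 8 arrays in 27 of the 39 members (69.2%) and in 28.6% of all genes. Relative to the mean of the other 4 Ing2-/- arrays it was lower by a median of -0.38 in the members and 0.00 over all genes. By role, it was lowest in all 6 Aurora and passenger genes, all 3 Polo-like and Nek kinases and 4 of the 5 checkpoint genes, but in 2 of the 6 CDKs and Cks subunits, where it was the highest Ing2-/- array in 3. The mean over all members, relative to the Ing2+/+ mean, was -0.31 in replicate 3 and -0.09 to 0.05 in the other 4, against -0.01 to 0.03 in the Ing2+/+ arrays. The same array had the most extreme levels of Sertoli, Leydig, pachytene and round spermatid markers.

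**Figure D4:**
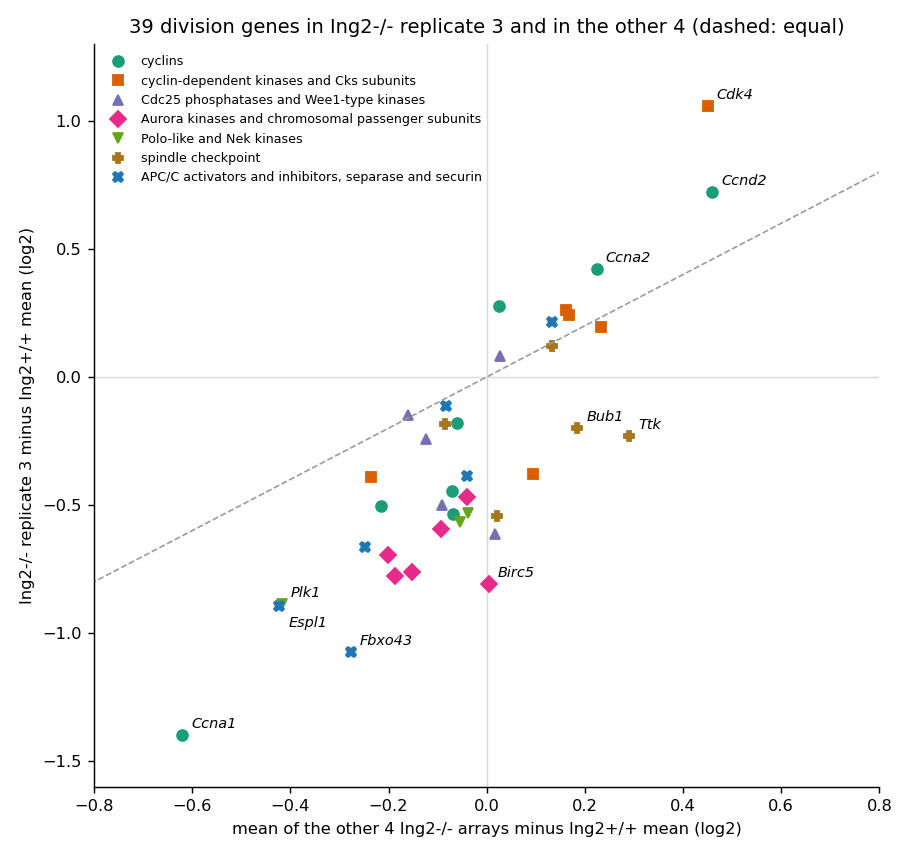
Each of the 39 genes by its level in Ing2-/- replicate 3 (y axis) and by the mean of the other 4 Ing2-/- arrays (x axis), both in log2 units relative to the Ing2+/+ mean, with symbols for the role and a dashed line where both are equal. Most genes lie below the line (median -0.38), among them Birc5, Bub1 and Ttk, which are at or above 0 on the x axis, while Cdk4 and Ccnd2 lie above it.

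Other genes of the division machinery were counted by 6 lists with 111 genes, of which 109 were measured. Of these, 11 (10.1%) were called, against 4.98% of all genes, and 10 of the 11 were higher in Ing2-/- testes and 1 lower, where 1.97% and 3.01% of all genes were. The genotypes did not overlap in 35 of the 109 genes (32.1%), 27 higher and 8 lower. Of all genes this held for 31.6%, 16.7% higher and 14.9% lower. In limma 37 of the 109 (33.9%) had an unadjusted p under 0.05, against 30.0% of all genes. These last 2 shares lie near those of all genes. Sertoli and Leydig markers were higher and spermatid markers lower in the same 5 arrays. With the cell mix as a covariate 58 of all 19938 genes were called, 22 higher and 36 lower, against 992 in the main fit. In that fit with the covariate 3 pathway genes were called, all of them higher. These were E2f7 (adjusted p = 0.0348), which was among the 11, and Kntc1 and Mcm7 (adjusted p = 0.0382 and 0.0345), which were not and are named after their values were seen. The median difference of the 109 genes was 0.07. Without Ing2-/- replicate 3 the count of called genes was 25 (22.9%), 23 higher and 2 lower, against 16.5% of all genes, 8.72% higher and 7.76% lower. Without any 1 of the Ing2+/+ arrays or Ing2-/- replicate 5 it was 0 in limma, with 27 to 30 at an unadjusted p under 0.05. Over all 19938 genes, 40 to 149 were called without an Ing2+/+ array and 213 without Ing2-/- replicate 5.

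Of the 14 APC/C subunits and E2 enzymes, 2 rose, Anapc7 (0.36, adjusted p = 0.0254) and Cdc23 (0.30, adjusted p = 0.0499), both scaffold subunits of the complex whose regulators Cdc20, Fzr1 and Fbxo43 are described above. Anapc7 was at 8.23, 8.37 and 8.40 in Ing2+/+ and at 8.71, 8.72, 8.75, 8.62 and 8.66 in Ing2-/- testes, and replicate 3 did not stand apart. The median of the list was 0.15. Of 21 genes of the kinetochore and of checkpoint docking, 2 rose: Zwint, which links the checkpoint to the kinetochore, and Trip13, an ATPase that remodels Mad2 and chromosome axis proteins (0.25, adjusted p = 0.0473). Zwint was at 8.86, 8.97 and 8.94 and at 9.55, 9.49, 10.13, 9.62 and 9.64. All 5 Ing2-/- testes were well above the Ing2+/+ range, by 0.76 (SE 0.14; 1.70-fold; adjusted p = 0.0242) in the mean and 0.65 without replicate 3. With the cell mix as a covariate the rise was 0.38 in Zwint (adjusted p = 0.116) and 0.32 in Anapc7 (adjusted p = 0.181). The median of the kinetochore list was -0.05.

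Among 17 of the 18 CDK inhibitors, Rb proteins and E2F factors, 3 rose: the pocket protein Rbl2 (0.54, adjusted p = 0.0237) and the repressive E2F factors E2f7 (0.45, adjusted p = 0.0453) and E2f6 (0.39, adjusted p = 0.0499). E2f8, named after its values were seen, was lower in every Ing2-/- testis but not called (-0.49, adjusted p = 0.0659). Without replicate 3 E2f8 was at -0.42 and passed (adjusted p = 0.0478). The median of this list was 0.10, with 13 differences above and 4 below 0. Of 13 genes of origin licensing and replication, 2 rose: Mcm5, a subunit of the replicative helicase (0.34, adjusted p = 0.0367), and Mki67, a marker of cycling cells (0.33, adjusted p = 0.0476). The list's median was 0.24. Of 32 other cyclins and CDKs, 1 rose, Cdk15 (0.39, adjusted p = 0.0471), and of 12 other Nek and Polo-like kinases, 1 fell, Nek10. It was at 6.67, 6.57 and 6.69 in Ing2+/+ and at 6.12, 5.98, 5.60, 6.28 and 5.87 in Ing2-/- testes, a difference of -0.67 (adjusted p = 0.0370), which was -0.32 with the cell mix as a covariate (adjusted p = 0.309).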

How the data were processed

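RNA of whole testes from 3 Ing2+/+ and 5 Ing2-/- mice was read on Affymetrix Mouse Gene 1.0 ST arrays. The deposited log2 values were made by the authors with RMA in Affymetrix Expression Console, at the gene level, with no version given in the sources used here. RMA forces all arrays onto 1 distribution, and total RNA per testis is therefore not seen. The number of arrays limits the precision. No column was left out.

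Names of probe sets came from the platform annotation. Of 35557, 21789 had 1 symbol, 1621 several and 12147 none, and 21698 symbols were updated through gene identifiers. Genotypes were compared in limma 3.58.1 (R 4.3.3) with lmFit and eBayes and no covariate. P-values were adjusted by Benjamini-Hochberg over every probe set, and a gene was called at an adjusted p under 0.05. The methods' random variance model was run beside it. The p-values of these fits set the genotype difference against the spread between these mice, with each variance drawn toward those of other probe sets. Pairs of forms were compared by exact permutation over all splits in Python 3.11.15. Figures were drawn with matplotlib 3.10.9. The fits were tested on simulated data made from the real levels and variances. The simulated noise was independent, with 1 variance per probe set for both genotypes. It therefore does not cover a wider spread in 1 genotype or a shift of many genes in 1 array.

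The members, gene lists and tests were chosen with earlier results of these data known. The named genes are Ing2, all members, and of each other list up to 4 called members with the largest change. Kntc1, Mcm7 and E2f8 were named after their values were seen. The lists were APC/C subunits, the kinetochore, CDK inhibitors with Rb and E2F proteins, origin licensing, other cyclins and CDKs, other Nek and Polo-like kinases, and markers of spermatogonia, pachytene spermatocytes, round and elongating spermatids, Sertoli, Leydig, peritubular myoid and endothelial cells, and macrophages. The cell mix is the mean of the Sertoli markers minus that of both spermatid lists, and it did not overlap between the genotypes. Alternatives were each array left out, a replicate block, filters on level and annotation, cyclic loess, equal medians of Sertoli or pachytene markers, other variance models, array weights, the cell mix as a covariate, the mean of a gene's probe sets and a minimum of 1.5-fold.

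Replicate numbers were taken from the labels, which state no pairing, and the main fit did not pair the arrays by them. Promoter sequences are those of RefSeq on GRCm38.p6.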

Additional observations from a re-analysis of the deposited data

Results flagged for a closer look

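In 4 members a single Ing2-/- array, replicate 3, lay far below the other 4. Its log2 level was 7.91 for Aurkc, 7.30 for Birc5, 9.84 for Bub1 and 8.90 for Bub1b. In the kinetochore gene Zwint the same array lay far above the others, at 10.13. In 2 of the 5 pairs it also stood apart, at -1.29 for Fbxo43 minus Fbxo5 and -0.64 for Cks2 minus Cks1b, relative to the Ing2+/+ mean. Of 56 groups of 5 arrays examined, 7 were set apart by Dixon's ratio of the gap to the range, all 7 by replicate 3, and chance alone sets about 1 in 20 apart. The same array had the highest Sertoli and Leydig marker levels and the lowest pachytene and round spermatid marker levels. The part of these markers in the levels of the genes was not tested beyond the fit with the cell mix as a covariate. In the pairs it was not tested.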

How the results depend on the processing

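The count of members called was 1 and that of other pathway genes 11. With 1 array left out they ranged from 0 to 4 and from 0 to 25. They were 28 and 59 at equal Sertoli marker medians, which turned the split of the members to 0 higher and 28 lower and moved the median of all genes to -0.60, and 0 and 6 at equal pachytene marker medians (median of all genes 0.31). They were 7 and 30 with array weights, 2 and 17 with probe sets of 1 symbol only, 0 and 3 when the cell mix was a covariate, and 0 and 0 when each probe set kept its own variance. Members numbered 3 among probe sets above the median level, 3 with cyclic loess (1 higher and 2 lower), 2 with the mean of a gene's probe sets, and 0 at a minimum of 1.5-fold. Pathway genes numbered 4 with an intensity trend. Calls over all 19938 genes moved as well, from 992 in the main fit to between 40 and 3286 with 1 array left out. They numbered 14235 at equal Sertoli and 167 at equal pachytene marker medians. With array weights 4107 were called, with probe sets of 1 symbol only 1646, with the cell mix 58 and with own variances 142. Above the median level 1345 of 11617 were called, with cyclic loess 1193, with means of probe sets 1614 and with an intensity trend 688. In the fits with 0 members called, 8 to 13 had an unadjusted p under 0.05. With cyclic loess the exact permutation test of the pairs gave an adjusted p of 0.0446 for cyclin A (-0.94) and for the Emi pair (-0.54), and limma on the differences passed cyclin A (-1.04).

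At equal Sertoli marker medians the differences of Ccnd1 (-0.54), Ccnd2 (-0.11), Cdc25b (-0.58), Anapc7 (-0.26), Cdc23 (-0.32), Trip13 (-0.37), Rbl2 (-0.082), E2f7 (-0.17), E2f6 (-0.22), Mcm5 (-0.28), Mki67 (-0.29) and Cdk15 (-0.23) were below 0. That setting lowers the difference of every gene by the same amount, so that a smaller rise turns below 0 by construction, in members and other genes alike. Only genes called in the main fit or at equal Sertoli marker medians are listed here. Uncalled rises, such as those of Ccna2 (-0.36), Cdk1 (-0.44) and Cdk4 (-0.05), also turned below 0 there. The direction of Ccnd2 was kept under the other alternatives, and the cause of the other changes was not tested.

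With the replicate block 0 members and 0 pathway genes were called, Ccnd2 had a difference of 0.54 (adjusted p = 0.116), and cyclin A as a pair -1.12 (adjusted p = 0.123). No gene of the array was called in that fit. Deviations of same-numbered arrays had an r of -0.07, 0.13 and -0.05 over probe sets, and number 2 alone had its highest r with its own number. With so few arrays these values cannot decide whether the numbers pair the arrays.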
